A study of Homo sapiens with 26 samples.

Results

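The 9 genes HSP90AA1, HSP90AB1, STIP1, AHSA1, CHORDC1, FKBP4, HSPD1, HSPE1 and HSPB1, which encode the cytosolic HSP90 chaperones, their co-chaperones, the mitochondrial chaperonin and the small heat shock protein HSP27, were followed in poly(A) RNA sequencing of the human colorectal carcinoma line HCT116. They were picked by name out of the 63086 genes of the count tables, and all 9 were among the 9099 protein-coding genes tested. All cells except the parental ones carried the genotype IGF2BP2 KO, IGF2BP3 KO, Tet-OsTIR1-PURO and expressed a lentiviral mCherry-IGF2BP1 as WT, as RQ (arginines of a linker replaced by glutamine), as S181E or as Y396E. S181E and Y396E place a glutamate at a phosphorylation site in a disordered linker of this RNA-binding protein and are meant to mimic its phosphorylated form. Each population received PBS (control) or 500 µM sodium arsenite for 2 h, in 3 libraries per group, and parental HCT116 cells gave 1 library with each treatment. The knockout background came from single-cell clones, and each population was 1 transduced pool sorted by flow cytometry through a narrow gate, so that the effect of a mutation and the history of its pool cannot be told apart, and the 3 libraries of a group were dishes of that pool grown separately.

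HSP90 is an ATP-driven chaperone that folds kinases, steroid receptors and other clients late in their maturation, with co-chaperones that deliver clients, set the pace of the ATPase or recruit isomerases. HSP60 (HSPD1) and its lid HSP10 (HSPE1) form the folding chamber of the mitochondrial matrix, and HSP27 (HSPB1) holds unfolding proteins without ATP. Arsenite reacts with protein thiols and triggers the heat shock response, in which heat shock factor 1 binds repeats of GAA and TTC units upstream of chaperone genes.

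Total counts ranged from 22508145 to 50834401 per library. The epithelial markers EPCAM, KRT8, KRT18, KRT19, CDH1 and CLDN4 were present in all libraries, whereas the leukocyte gene PTPRC was at 0 counts in 25 of 26 libraries and the fibroblast gene COL3A1 in 21 of 26. The fibroblast-associated gene COL1A1 was at 6.89 to 11.9 CPM (a gene's reads relative to the total counted in its library) in the populations. IGF2BP1 stood at 9.22 to 14.3 CPM in WT and RQ control, 14.9 to 21.1 CPM in S181E and Y396E control, 28.3 to 30.9 CPM in WT arsenite and 43.6 to 47.7 CPM in the other arsenite groups, against 0.338 and 0.674 CPM in the parental pair. Reads of the disrupted genes remained, at 65.5 to 93.2 CPM for IGF2BP2 and 102.2 to 167 CPM for IGF2BP3 in the populations. The parental control and arsenite libraries held 117.7 and 157.6 CPM of IGF2BP2 and 89.8 and 115.1 CPM of IGF2BP3. A count over whole genes does not resolve the reads of disrupted genes further. The Y396E arsenite library of replicate 3 held counts for 13897 genes, against at least 20850 in every other library. The mitochondrial genome gave 21.1 to 27.9% of the counts in WT and RQ control, 11.7 to 17.1% in S181E and Y396E control and 7.55 to 13.5% in arsenite. This share moved with the groups, and with mitochondrial genes left out before scaling the counts of the 9 genes called below stayed within 1 gene of those given in each comparison. That refit bears on the scaling only, and what the share itself goes with was not tested.

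The sequence upstream of the start site is shown for the HSP90 pair, for the divergent neighbours HSPD1 and HSPE1, and for CHORDC1, the only one of the 9 genes called in RQ against WT. The promoter table used here (RefSeq, GRCh38.p14) matched 14 windows of 8 of the 9 genes, all but FKBP4. HSP90AB1 had 3 windows, HSP90AA1, HSPD1, AHSA1 and STIP1 had 2 each and HSPE1, HSPB1 and CHORDC1 had 1 each, and where a gene shown had several the one with motif matches is printed. Each line gives the 250 bases before 1 start site, 5′ to 3′ on the strand of the gene, with matches to GAANNTTC or TTCNNGAA in capitals. Both motifs read the same on either strand and matches may overlap. HSP90AA1 is shown at chr14:102087045-102087294 (minus strand), HSP90AB1 at chr6:44247693-44247942 (plus), CHORDC1 at chr11:90223050-90223299 (minus), HSPD1 at chr2:197499841-197500090 (minus) and HSPE1 at chr2:197500129-197500378 (plus).
HSP90AA1: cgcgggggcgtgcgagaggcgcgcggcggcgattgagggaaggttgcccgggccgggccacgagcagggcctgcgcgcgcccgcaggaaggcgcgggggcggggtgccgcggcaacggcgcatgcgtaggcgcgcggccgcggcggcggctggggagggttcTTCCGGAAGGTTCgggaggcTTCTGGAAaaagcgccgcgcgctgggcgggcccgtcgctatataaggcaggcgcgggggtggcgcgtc
HSP90AB1: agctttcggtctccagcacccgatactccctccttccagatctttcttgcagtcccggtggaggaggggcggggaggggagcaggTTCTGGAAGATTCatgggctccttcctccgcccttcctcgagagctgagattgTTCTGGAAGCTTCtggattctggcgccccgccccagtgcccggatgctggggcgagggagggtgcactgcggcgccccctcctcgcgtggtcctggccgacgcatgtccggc
CHORDC1: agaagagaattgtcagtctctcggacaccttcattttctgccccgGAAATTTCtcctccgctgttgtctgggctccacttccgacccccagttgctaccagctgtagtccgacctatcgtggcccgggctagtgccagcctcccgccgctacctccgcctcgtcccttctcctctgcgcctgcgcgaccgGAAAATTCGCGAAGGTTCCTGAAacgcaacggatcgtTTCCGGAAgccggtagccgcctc
HSPD1: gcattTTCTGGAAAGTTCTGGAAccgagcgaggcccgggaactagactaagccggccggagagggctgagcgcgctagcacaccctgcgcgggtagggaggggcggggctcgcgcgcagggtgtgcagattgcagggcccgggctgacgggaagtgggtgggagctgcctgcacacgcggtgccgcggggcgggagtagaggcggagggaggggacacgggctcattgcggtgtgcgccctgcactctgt
HSPE1: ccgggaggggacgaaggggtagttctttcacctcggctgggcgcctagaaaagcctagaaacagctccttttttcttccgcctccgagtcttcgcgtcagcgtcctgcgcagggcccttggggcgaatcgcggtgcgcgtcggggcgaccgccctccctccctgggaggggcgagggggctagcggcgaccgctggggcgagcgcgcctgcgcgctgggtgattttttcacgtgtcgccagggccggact

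Of 34943 RefSeq promoter windows (250 bases before and 50 after a start site), 6.79% held GAANNTTC and 7.74% held TTCNNGAA. A run of 3 alternating GAA and TTC units, each separated by 2 bases, was in 0.489% of these windows and in 4 of the 14 windows of the 8 genes, 1 each of HSP90AA1, HSP90AB1, HSPD1 and CHORDC1. The other windows of HSP90AA1, HSP90AB1 and HSPD1 held neither motif. Counted from the start site, it began at position -88 in HSP90AA1 and at positions -165 and -112 in HSP90AB1. HSPB1 held 1 GAANNTTC, at position -182, STIP1 held 1 TTCNNGAA in 1 of its 2 windows, at position 14, and the windows of AHSA1 and HSPE1 held neither motif. HSPD1 and HSPE1 are divergent neighbours, and the HSPE1 start lies 539 bases from the HSPD1 start whose window is printed and 105 bases from the other HSPD1 start in the table. The HSPD1 run has its outermost base at position -245 from the first of these starts and -294 from the HSPE1 start, just outside the window searched for HSPE1. A match of letters is a description and not evidence of binding.

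Levels are given as CPM of protein-coding counts with TMM (trimmed mean of M-values) library scaling, and changes as log2 ratios with their standard error (SE) from 1 edgeR quasi-likelihood fit of the 24 population libraries. A gene was called at a Benjamini-Hochberg adjusted p under 0.05 and a fold change over 1.2, which is 0.26 on the log2 scale. Arsenite moved most of the transcriptome: in WT 72.2% of the genes tested were called and 36.3% were called higher, with 72.9% and 37.1% in RQ, 65.3% and 32.0% in S181E and 65.8% and 32.9% in Y396E. Of the 9 genes, 7 were called higher and 1 lower in WT, RQ and Y396E, and 6 higher and 1 lower in S181E. Their median log2 change was 1.40 in WT and 1.51 in RQ, against 0.92 in S181E and 0.88 in Y396E, beside medians between -0.03 and -0.01 over all genes tested. Library totals alone, without TMM, moved the median of all genes in WT to 0.14. Arsenite and control libraries did not overlap for 86.2% of the genes tested in WT and RQ, 84.2% in S181E and 73% in Y396E. Against WT in control, libraries were apart for 58.6% of the genes in S181E, 53.7% in Y396E and 17.2% in RQ. In arsenite they were apart from WT for 53.8%, 44.6% and 29.9%, in the same order. The 9 genes took 0.254 to 0.353% of all counts in WT and RQ control, 0.448 to 0.519% in S181E and Y396E control, and 1.17 to 1.27% in arsenite.

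**Figure D1:**
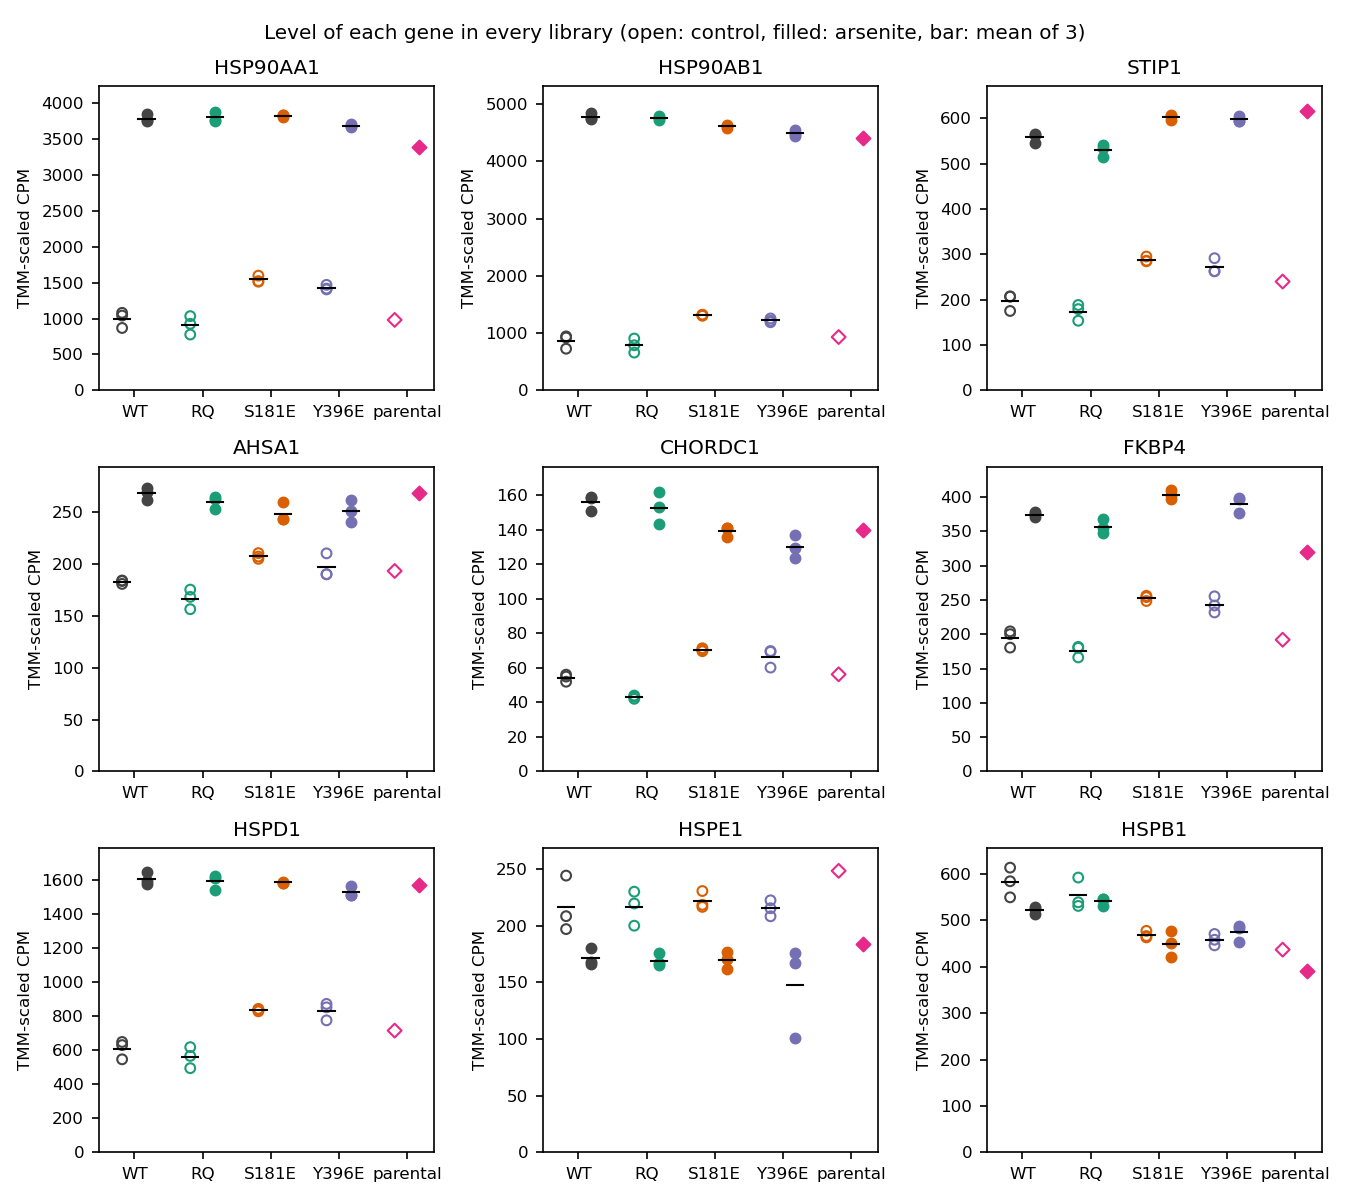
Level of each of the 9 genes (TMM-scaled CPM, linear axes from 0) in every library of the 4 populations and the parental pair, with open symbols for control, filled symbols for arsenite and a bar at the mean of 3 libraries. The 2 HSP90 genes, STIP1, CHORDC1, FKBP4 and HSPD1 are far higher in arsenite than in control and start higher in S181E and Y396E, HSPE1 is lower in arsenite, and HSPB1 is lower in S181E and Y396E in either treatment.

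HSP90AA1 (ENSG00000080824.19, chr14:102080742-102139686, minus strand, hg38) encodes HSP90 alpha, the isoform known as stress inducible. In control its level was 1079, 868.3 and 1041 CPM in WT, 1033, 777.2 and 926.3 CPM in RQ, 1596, 1520 and 1512 CPM in S181E and 1416, 1468 and 1405 CPM in Y396E. In arsenite it was 3744, 3840 and 3759 CPM in WT, 3767, 3877 and 3751 CPM in RQ, 3826, 3837 and 3796 CPM in S181E and 3657, 3701 and 3676 CPM in Y396E. Every arsenite library thus lay above every control library, and S181E and Y396E control lay above all WT and RQ control libraries. The log2 change in arsenite was 1.92 (SE 0.074, adjusted p = 1.84e-17) in WT, 2.06 (SE 0.074) in RQ, and 1.31 (SE 0.072) in S181E compared with 1.36 (SE 0.072) in Y396E, each with n = 3 against 3 libraries in edgeR. Ordered by mean level, S181E, RQ and WT in arsenite overlapped each with the next, Y396E arsenite, S181E control and Y396E control stood apart from their neighbours, and WT and RQ control overlapped.

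HSP90AB1 (ENSG00000096384.20, chr6:44246166-44253888, plus strand) encodes HSP90 beta, the isoform usually described as constitutive, and it rose more than HSP90AA1 in each population. Its control level was 942.8, 727.9 and 924.1 CPM in WT, 906, 660.3 and 787.8 CPM in RQ, 1321, 1303 and 1317 CPM in S181E and 1190, 1216 and 1256 CPM in Y396E. In arsenite it reached 4851, 4729 and 4761 CPM in WT, 4756, 4782 and 4724 CPM in RQ, 4614, 4637 and 4579 CPM in S181E and 4539, 4484 and 4447 CPM in Y396E. As with HSP90AA1, the arsenite and control libraries did not overlap, and replicate 2 was the lowest control library of both WT and RQ. The log2 change was 2.47 (SE 0.083, edgeR adjusted p = 1.9e-18) in WT, 2.60 (SE 0.084) in RQ, and 1.81 (SE 0.081) in S181E compared with 1.88 (SE 0.082) in Y396E, which is a rise of 5.53-fold in WT and 3.51-fold in S181E.

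The ratio of HSP90AA1 to HSP90AB1 counts within a library needs no scaling between libraries. On the log2 scale it was 0.195, 0.254 and 0.172 in WT control and -0.374, -0.300 and -0.341 in WT arsenite, a mean difference of -0.55. The corresponding differences were -0.54 (RQ), -0.50 (S181E) and -0.52 (Y396E), and control and arsenite libraries were apart in each population. With 3 libraries against 3, the two-sided exact permutation test gave p = 0.1 in all 4 populations, the smallest p it can give (adjusted p = 0.2 over 24 ratio tests, of which 12 were at the smallest p). Between populations the control ratios overlapped, at 0.21 in WT and 0.23 in S181E and Y396E, and in arsenite the ratio was -0.34 in WT and -0.27 in S181E, without overlap (exact permutation p = 0.1, adjusted p = 0.2). Of the 100-base windows of the HSP90AA1 and HSP90AB1 transcripts, 3.07% and 1.71% also occur elsewhere in the genome (a check added after the data were seen), so most of their reads could be placed.

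**Figure D2:**
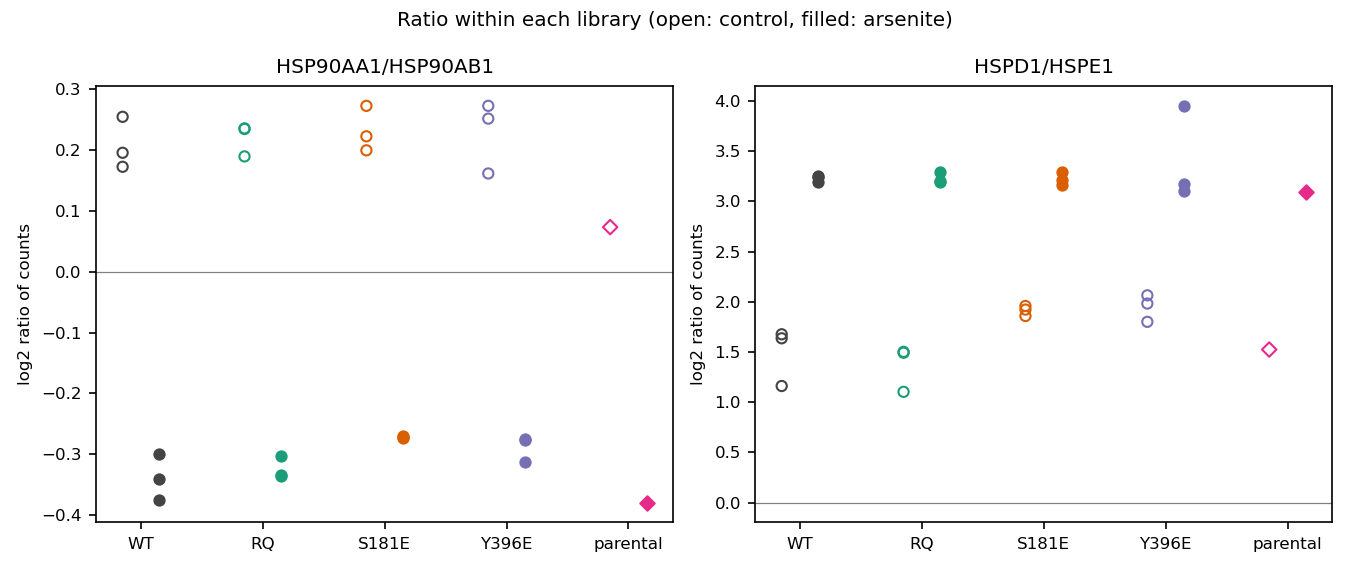
Log2 ratio of HSP90AA1 to HSP90AB1 counts (left) and of HSPD1 to HSPE1 counts (right) in every library, with open symbols for control and filled symbols for arsenite. The HSP90 ratio falls from above 0 to below 0 in all 4 populations and the parental pair, and the HSPD1 to HSPE1 ratio rises, with Y396E arsenite replicate 3 highest at 3.95.

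The 4 co-chaperones rose less than HSP90 itself and in unequal steps. CHORDC1 (ENSG00000110172.12, chr11:90200429-90223077, minus strand) encodes an HSP90-binding protein with cysteine- and histidine-rich domains. It was the member with the lowest level per kilobase, at 56.1, 55 and 52 CPM in WT control, 44, 42.1 and 43.2 CPM in RQ control, 71.4, 69.7 and 70.5 CPM in S181E control and 60.2, 69.4 and 69.8 CPM in Y396E control. In arsenite it was 150.9, 158.9 and 158.3 CPM in WT, 162.1, 153.1 and 143.4 CPM in RQ, 140.9, 141.2 and 136.2 CPM in S181E and 129.6, 136.9 and 124 CPM in Y396E. The order of the populations was thus S181E and Y396E above WT above RQ in control, and WT and RQ above S181E and Y396E in arsenite, with no overlap between those pairs of groups. Its log2 change was 1.52 (SE 0.056) in WT, 1.83 (SE 0.057) in RQ, and 0.98 (SE 0.055) in S181E compared with 0.97 (SE 0.055) in Y396E, with an edgeR adjusted p of at most 7.4e-14 in each.

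STIP1 (ENSG00000168439.17, chr11:64185272-64204543, plus strand) encodes the adaptor HOP, which bridges HSP70 and HSP90. It went from 207.4, 175.3 and 207 CPM in WT control to 546.7, 564 and 565.4 CPM in WT arsenite, and from 295.4, 286.1 and 284.9 CPM in S181E control to 605.7, 608.2 and 597.1 CPM in S181E arsenite. The log2 change was 1.51 (SE 0.062) in WT, 1.61 (SE 0.063) in RQ, and 1.06 (SE 0.062) in S181E compared with 1.13 (SE 0.062) in Y396E, all called by edgeR. FKBP4 (ENSG00000004478.8, chr12:2794970-2805423, plus strand) encodes FKBP52, an isomerase of steroid receptor complexes, and ranged from 180.6 to 204.3 CPM in WT control and from 370.9 to 378.4 CPM in WT arsenite. Its log2 change was 0.94 (SE 0.047) in WT, 1.02 (SE 0.048) in RQ, and 0.67 (SE 0.047) in S181E compared with 0.68 (SE 0.047) for Y396E. AHSA1 (ENSG00000100591.8, chr14:77458032-77469472, plus strand) encodes AHA1, which speeds up the HSP90 ATPase, and had the smallest rise, from 183 ± 1.78 CPM (SD, n = 3) in WT control to 268.8 ± 5.88 CPM (SD, n = 3) in WT arsenite. Its log2 change was 0.56 (SE 0.047) in WT, 0.64 (SE 0.048) in RQ and 0.35 (SE 0.047) in Y396E, all called. In S181E it was 0.26 (SE 0.047, edgeR adjusted p = 2.46e-05) and fell just short of the fold threshold. There AHSA1 was called in 19 of the alternatives, among them size factors of DESeq2 at 0.28 and the setting with no fold threshold.

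HSPD1 (ENSG00000144381.18, chr2:197486584-197516737, minus strand) and HSPE1 (ENSG00000115541.11, chr2:197500140-197503449, plus strand) encode the barrel and the lid of the same chaperonin and are transcribed away from each other, and they moved in opposite directions. HSPD1 was at 647.8, 546 and 629.5 CPM in WT control, 617.4, 494.1 and 566 CPM in RQ control, 841.8, 836 and 827.5 CPM in S181E control and 774.6, 850.9 and 871 CPM in Y396E control. In arsenite it was at 1593, 1643 and 1574 CPM in WT, 1621, 1610 and 1539 CPM in RQ, 1582, 1583 and 1585 CPM in S181E and 1509, 1512 and 1563 CPM in Y396E. All arsenite libraries were above all control libraries, with a log2 change of 1.40 (SE 0.064) in WT, 1.51 (SE 0.064) in RQ, and 0.92 (SE 0.063) in S181E compared with 0.88 (SE 0.063) in Y396E, each with an edgeR adjusted p of at most 5.74e-12.

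HSPE1 was at 208.4, 244.2 and 197 CPM in WT control, 219.6, 230 and 200 CPM in RQ control, 216.6, 230.6 and 218.4 CPM in S181E control and 222.4, 215.4 and 208.3 CPM in Y396E control. In arsenite it was at 167.6, 180.3 and 165.8 CPM in WT, 165.2, 175.7 and 166.8 CPM in RQ, 177, 170.5 and 161.4 CPM in S181E and 167.3, 175.8 and 101.1 CPM in Y396E. Every arsenite library was below every control library, and the lowest one was Y396E replicate 3, the library with few genes counted. The log2 change was -0.34 (SE 0.118, edgeR adjusted p = 0.0113) in WT, -0.36 (SE 0.118, adjusted p = 0.00822) in RQ, and -0.39 (SE 0.118, adjusted p = 0.00472) in S181E compared with -0.54 (SE 0.118, adjusted p = 0.000222) in Y396E. The call depended on single libraries and on scaling. In WT it was lost without WT control replicate 2 (-0.25, adjusted p = 0.0788), without WT arsenite replicate 3 (-0.29, adjusted p = 0.0526) and with library totals alone (-0.18, adjusted p = 0.133), and in RQ with library totals alone (-0.19, adjusted p = 0.107). In Y396E the change was -0.31 (adjusted p = 0.000107), still called, without Y396E arsenite replicate 3.

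The log2 ratio of HSPD1 to HSPE1 counts, again free of scaling, was 1.636, 1.161 and 1.676 in WT control and 3.248, 3.188 and 3.247 in WT arsenite. It rose by 1.74 in WT, 1.87 in RQ, and 1.31 in S181E compared with 1.46 for Y396E with no overlap of libraries (exact permutation p = 0.1 in each population, the smallest possible, adjusted p = 0.2 over the 24 tests). Without Y396E arsenite replicate 3 the difference in Y396E was 1.19. The mean ratio in control was 1.37 in RQ, 1.49 in WT, 1.91 in S181E and 1.95 in Y396E, and in arsenite it was 3.23 in WT and RQ, 3.22 in S181E and 3.41 in Y396E. Reads of HSPE1 could be counted over only part of the transcript, because 192 of its 876 exon bases (21.9%) are shared on the same strand with the readthrough gene HSPE1-MOB4, and counting left out reads assigned to more than 1 gene or position. Of 458 windows of 100 bases along its transcript, 201 (43.9%) touched neither that gene nor a second copy in the genome, against 87.7% for HSPD1. This limits the level of HSPE1, and whether it touches the change in arsenite was not tested.

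HSPB1 (ENSG00000106211.10, chr7:76302673-76304295, plus strand) encodes HSP27, a small heat shock protein that is abundant in epithelial cells. It was at 583.7, 613 and 549.1 CPM in WT control and at 512.4, 524.1 and 527.7 CPM in WT arsenite. S181E was at 465.8, 476.9 and 462.9 CPM in control and 477.3, 451.1 and 420.2 CPM in arsenite, and Y396E at 457.8, 445.7 and 470.2 CPM in control and 487.7, 453.8 and 483 CPM in arsenite. In either treatment all S181E and Y396E libraries were below all WT and RQ libraries. S181E and Y396E libraries were apart from WT for 58.6% and 53.7% of the genes tested in control, and 53.8% and 44.6% in arsenite. HSPB1 was not called for arsenite in any population. The log2 change was -0.16 (95% interval -0.26 to -0.06, edgeR adjusted p = 0.00524) in WT, -0.04 (-0.14 to 0.07, adjusted p = 0.518) in RQ, and -0.06 (-0.16 to 0.04, adjusted p = 0.272) in S181E compared with 0.05 (-0.05 to 0.15, adjusted p = 0.338) in Y396E.

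**Figure D3:**
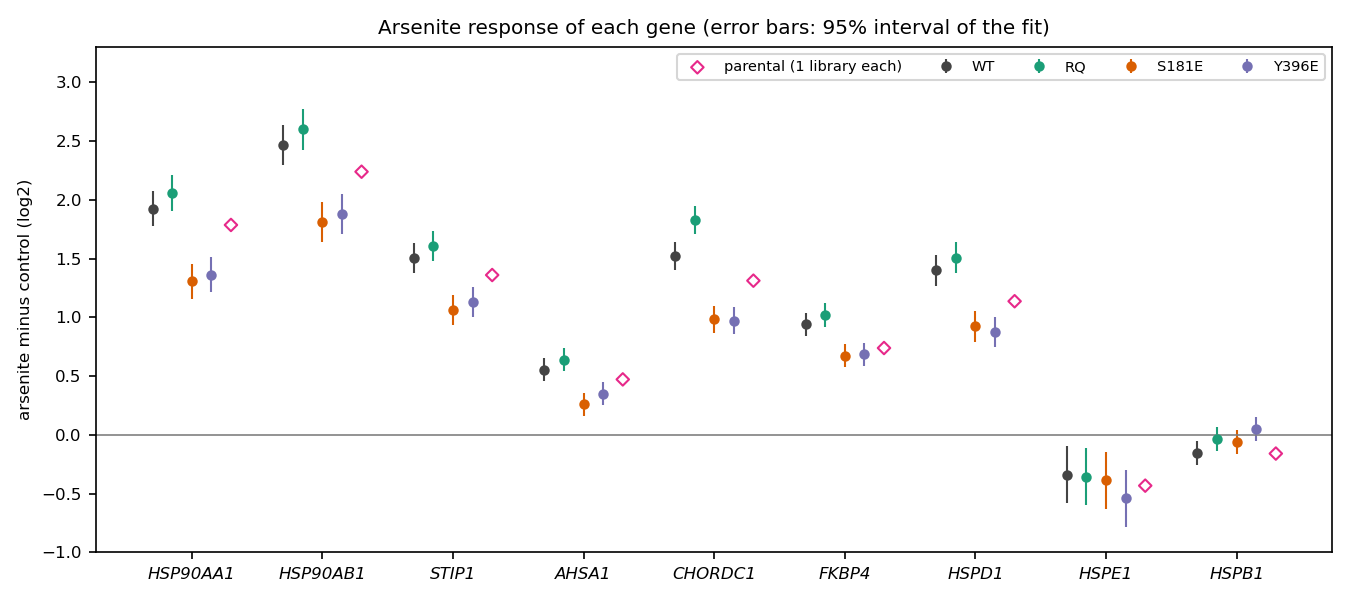
Log2 change in arsenite of each gene in the 4 populations, with 95% intervals of the edgeR fit (3 libraries per group), and the difference between the parental libraries as diamonds. The 7 genes that rose did so less in S181E and Y396E than in WT and RQ, with HSP90AB1 at 2.47 in WT and 2.60 in RQ, while HSPE1 lies below 0 and HSPB1 near 0 in all populations.

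In control, the phosphomimetic populations held more of 6 of these transcripts than WT and less of 1. In S181E against WT 31.1% of the genes tested were called and 15.7% were called higher, and in Y396E against WT 28.6% and 14.5%. Of the 9 genes, the same 6 (HSP90AA1, HSP90AB1, STIP1, CHORDC1, FKBP4 and HSPD1) were called higher in each, and HSPB1 was called lower in each. The median log2 difference of the 9 genes was 0.38 in S181E and 0.32 in Y396E, beside 0.02 in either over all genes tested. The 2 comparisons share the WT libraries, and the mitochondrial share of counts was lower, and IGF2BP1 and IGF2BP3 were higher, in S181E and Y396E control (IGF2BP3 at 160.2 to 167 CPM, against 102.2 to 113.9 CPM in WT control); the part of these in the differences was not tested. With mitochondrial genes left out before scaling, 6 genes were still called higher and 1 lower in each comparison. This refit changes only the scaling, so it cannot show whether the mitochondrial share has a part in the differences.

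In S181E control the log2 difference from WT was 0.63 (SE 0.071) for HSP90AA1, 0.60 (SE 0.080) for HSP90AB1 and 0.55 (SE 0.062) for STIP1, each with an edgeR adjusted p of at most 1.35e-06. It was 0.46 (SE 0.063) for HSPD1, 0.38 (SE 0.057) for CHORDC1 and 0.38 (SE 0.047) for FKBP4. In Y396E control the difference was 0.52 (SE 0.071) for HSP90AA1, 0.50 (SE 0.080) for HSP90AB1, 0.47 (SE 0.062) for STIP1, 0.45 (SE 0.063) for HSPD1, 0.32 (SE 0.047) for FKBP4 and 0.29 (SE 0.057) for CHORDC1. The CHORDC1 call in Y396E control rested on the fold threshold, since its difference was between 0.25 and 0.26 without WT replicate 3, Y396E replicate 2 or Y396E replicate 3. AHSA1 was not called, at 0.18 (SE 0.047) in S181E and 0.11 (SE 0.047) in Y396E, although with library totals alone it was called in S181E at 0.34 (adjusted p = 5.22e-05). HSPE1 differed by 0.04 (95% interval -0.21 to 0.28) in S181E and -0.01 (-0.25 to 0.24) in Y396E.

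HSPB1 differed from WT by -0.31 (SE 0.050, edgeR adjusted p = 1.62e-05) in S181E control and -0.35 (SE 0.050, adjusted p = 5.14e-06) in Y396E control. With library totals alone the differences were -0.15 and -0.22 and missed the fold threshold. Leaving out the 3 libraries that stood apart (WT and RQ control replicate 2 and Y396E arsenite replicate 3, chosen after seeing the data) left 7 of the 9 genes called in S181E control and 6 in Y396E control, where FKBP4 dropped to 0.26.

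In arsenite none of the 9 genes was called in S181E or Y396E against WT, although 13.7% and 21.7% of the genes tested were. Disregarding the fold threshold, 2096 genes in S181E and 3194 in Y396E passed the adjusted p by edgeR, of 9099 tested. Of the 9 genes 2 passed in each population, CHORDC1 and HSPB1, which is not above the share of all genes. CHORDC1 differed by -0.16 (SE 0.054, adjusted p = 0.0292) in S181E and by -0.26 (SE 0.054, adjusted p = 0.000538) in Y396E, the latter just short of the threshold, which it passed under several other settings. HSPB1 differed by -0.21 (SE 0.050, adjusted p = 0.00224) in S181E and -0.14 (SE 0.049, adjusted p = 0.0361) in Y396E. For HSP90AA1 the difference from WT in arsenite was 0.01 (95% interval -0.13 to 0.16) in S181E and -0.04 (-0.19 to 0.11) in Y396E, and for HSPD1 it was -0.02 (-0.15 to 0.11) and -0.07 (-0.20 to 0.06). These intervals exclude the differences of 0.46 to 0.63 measured for the same genes in S181E control.

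**Figure D4:**
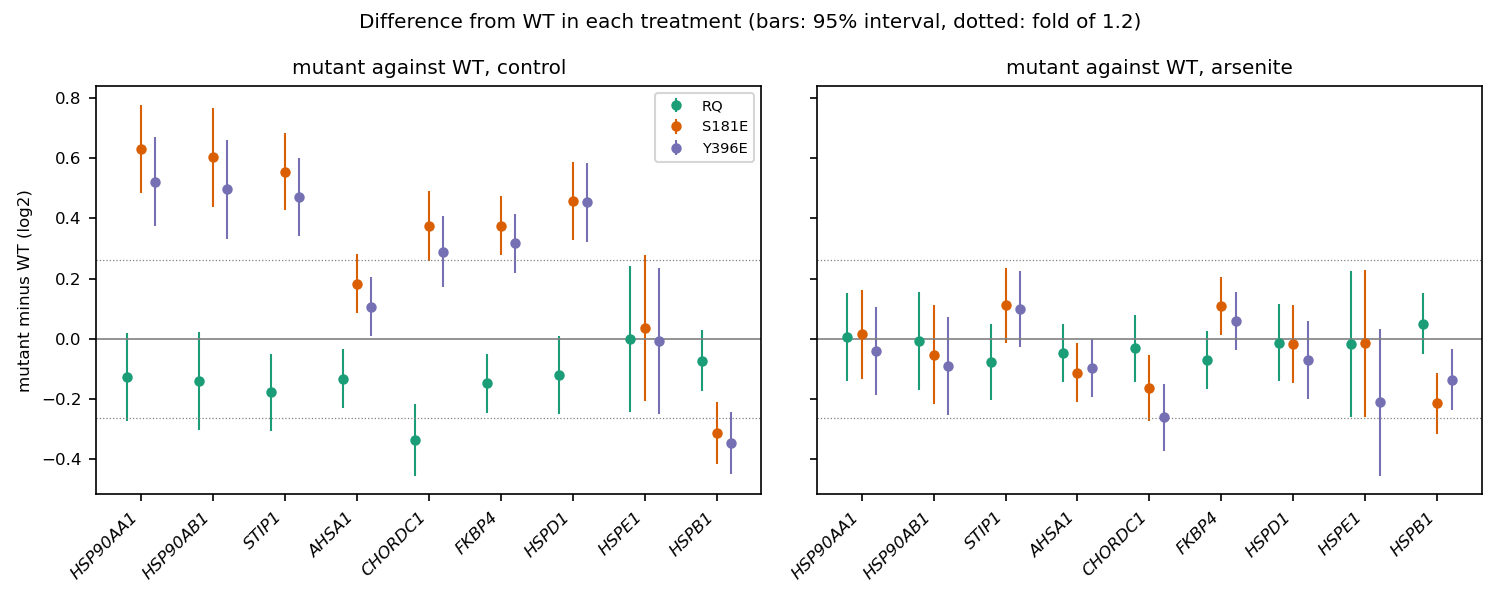
Log2 difference of RQ, S181E and Y396E from WT for each gene in control (left) and in arsenite (right), with 95% intervals of the edgeR fit and dotted lines at a fold of 1.2. In control 6 genes lie above the upper line in S181E and Y396E and HSPB1 lies below the lower line, and in arsenite nearly all points lie between the lines.

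The arsenite response of most of these genes was smaller in the phosphomimetic populations, which was tested as the difference of the 2 changes. The difference equals the contrast in arsenite less the contrast in control, so it is no separate evidence from them. In S181E minus WT 16.4% of the genes tested were called and 9.41% in the lower direction, and 7 of the 9 genes were called lower. In Y396E minus WT 21.5% were called and 11.1% in the lower direction, and 5 of the 9 genes were called lower. The median over the 9 genes was -0.44 in S181E and -0.37 in Y396E, beside -0.03 and -0.02 over all genes tested. The difference for HSP90AB1 in S181E was -0.655 (SE 0.112, edgeR adjusted p = 0.000499), and that for HSP90AA1 was -0.62 (SE 0.101, adjusted p = 0.000305). CHORDC1 had the lowest adjusted p of the 9 genes, with differences of -0.54 (SE 0.078, adjusted p = 8.71e-05) in S181E and -0.55 (SE 0.078, adjusted p = 4.63e-05) in Y396E. AHSA1 was called in S181E, at -0.295 (SE 0.067), and in Y396E with library totals alone, at -0.31 (adjusted p = 0.012). FKBP4 lay at the threshold, with -0.27 (SE 0.066) in S181E, called, and -0.26 (SE 0.066) in Y396E, not called. HSPE1 differed by -0.05 (95% interval -0.40 to 0.29) in S181E and -0.20 (-0.55 to 0.14) in Y396E, and HSPB1 by 0.21 (SE 0.070, adjusted p = 0.0309) in Y396E, not called.

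Between RQ and WT 1 of the 9 genes was called in control and none in arsenite. In control 1.43% of the genes tested were called in RQ against WT and 0.429% called lower, and of the 9 genes only CHORDC1 was called, at -0.34 (SE 0.058, edgeR adjusted p = 0.00134). The other 8 genes differed from WT by -0.18 to 0.00 in RQ control, with adjusted p from 0.117 to 1. Between same-numbered libraries, RQ control was below WT control in 3 of 3 pairs for 8 of the 9 genes, all but HSPE1, and in arsenite for STIP1 and FKBP4, while HSPB1 was above in 3 of 3. The share of all genes tested that did so was not counted. Genes in the same libraries can vary together, so these counts only describe the 3 pairs. Deviations of same-numbered WT and RQ libraries were correlated, and with these libraries alone and the replicate number as a block (chosen after seeing the data) 298 genes were called in control and 257 in arsenite, against 130 and 138. CHORDC1 was again the only one of the 9 called in control, at -0.33 (adjusted p = 8.15e-07), and none was in arsenite. Disregarding the fold threshold, STIP1 (-0.18, adjusted p = 0.00289), FKBP4 (-0.145, adjusted p = 0.0179), HSP90AB1 (-0.14, adjusted p = 0.0249), AHSA1 (-0.13, adjusted p = 0.0352) and HSP90AA1 (-0.13, adjusted p = 0.0421) also passed the adjusted p of the blocked edgeR fit in control, as did STIP1 (-0.08, adjusted p = 0.00807) and FKBP4 (-0.07, adjusted p = 0.0295) in arsenite. How many of all genes tested passed the adjusted p alone in this blocked fit was not counted, so these genes are not set against a share. In arsenite 1.52% of the genes tested were called and none of the 9, whose differences ran from -0.08 to 0.05. For the response of RQ minus WT 0.220% of the genes tested were called and none of the 9, and CHORDC1 was highest at 0.30 (SE 0.079, adjusted p = 0.206, unadjusted p = 0.000771). It was the only one of the 9 with an unadjusted p under 0.05 there.

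S181E and Y396E were compared directly as well, with no call among these genes. Over all genes tested 0 were called in control and 0 in arsenite by edgeR (289 and 1375 at an unadjusted p under 0.05, and 1 and 9 called by DESeq2). For the 9 genes the difference of Y396E from S181E was between -0.11 and -0.005 in control and between -0.195 and 0.08 in arsenite, none with an unadjusted p under 0.05. For HSP90AA1 the 95% interval was -0.26 to 0.04 in control and -0.20 to 0.09 in arsenite.

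Per kilobase of exon, the order of the genes changed with arsenite. In WT control HSPB1 was highest at 588.4 CPM per kb, followed by HSP90AB1 at 290.2, HSP90AA1 at 257 and HSPE1 at 247.2, and CHORDC1 was lowest at 7.53. In WT arsenite HSP90AB1 was highest at 1604 CPM per kb, followed by HSP90AA1 at 975.5, HSPB1 at 527.2 and HSPD1 at 492.3, with CHORDC1 at 21.6. HSPB1 led in all 4 control groups and HSP90AB1 in all 4 arsenite groups. The value of HSPE1 is a lower estimate because part of its exons could not be counted.

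Other chaperone families gave a frame for these 9 genes, and their lists too were set with earlier results of these data known. The HSP90 paralogs of the endoplasmic reticulum and mitochondria, HSP90B1 and TRAP1, both rose in WT arsenite, by 0.85 (SE 0.086) and 0.78 (SE 0.060), and neither was called in S181E or Y396E against WT in control. Of 19 other HSP90 co-chaperones and TPR partners tested, 12 were called higher and 2 lower in WT arsenite (median 0.30). In that comparison 72.2% of all genes tested were called, 36.3% higher and 35.9% lower. UNC45A, a myosin chaperone that works with HSP90, rose by 1.45 (SE 0.094) and USP19, a deubiquitinase, by 1.42 (SE 0.095), whereas STUB1, the ubiquitin ligase that tags chaperone clients, fell by 0.41 (SE 0.052). In S181E control 9 of the 19 were called higher than in WT and 0 lower, where 15.7% of all genes tested were called higher. PTGES3, the HSP90 cofactor p23, was among them at 0.32 (SE 0.037). In Y396E control 7 of the 19 were called higher and 0 lower, where 14.5% of all genes tested were called higher.

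The cytosolic chaperonin TRiC/CCT, which folds actin and tubulin, was higher in arsenite and in S181E and Y396E control. All 8 subunits were called higher in WT arsenite, from 0.35 (SE 0.037) for TCP1 to 1.21 (SE 0.068) for CCT2, with a median of 0.99. In control 8 of 8 were called higher in S181E than in WT (median 0.42) and 7 of 8 in Y396E (median 0.40). Of all genes tested 36.3% were called higher in WT arsenite, 15.7% in S181E control and 14.5% in Y396E control. Against WT in arsenite 0 of 8 were called higher in either, where 13.7% and 21.7% of all genes were called in either direction. Prefoldin hands clients to TRiC/CCT, and in arsenite 3 of 5 tested subunits were called lower in WT, where 35.9% of all genes tested were, among them PFDN1 at -0.78 (SE 0.056), and 0 higher. None of the 5 was called between S181E or Y396E and WT.

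Among 14 mitochondrial chaperones and proteases, a list that shares TRAP1 with the paralogs, 8 were called higher and 2 lower in WT arsenite. Of all genes tested 72.2% were called there, 36.3% higher and 35.9% lower. The mitochondrial HSP70 gene HSPA9 rose by 1.67 (SE 0.067), more than HSPD1, while its nucleotide exchange factors were at negative values, with GRPEL2 at -0.50 (SE 0.066, called) and GRPEL1 at -0.16 (SE 0.054, not called). In S181E control HSPA9 was higher than in WT by 0.55 (SE 0.066). None of the 9 other small heat shock genes passed the filter on low counts, and the highest was HSPB8 at 2.01 to 7.55 CPM over the 26 libraries. Of the heat shock factors, HSF2 rose by 1.54 (SE 0.107) in WT arsenite, HSF1 was not called there (-0.15, SE 0.048), and HSBP1, which encodes a factor that binds heat shock factor 1, fell by 0.62 (SE 0.051). HSF1 was called lower than in WT, at -0.63 (SE 0.048) in S181E control and -0.58 (SE 0.048) in Y396E control, and at -0.50 and -0.54 in arsenite. What lowered HSF1, and whether it bears on the 9 genes, was not tested. PTGES3, TCP1, GRPEL1 and HSF1 were named after their values were seen. Calls of these lists are by edgeR with Benjamini-Hochberg adjustment over all 9099 genes.

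**Figure D5:**
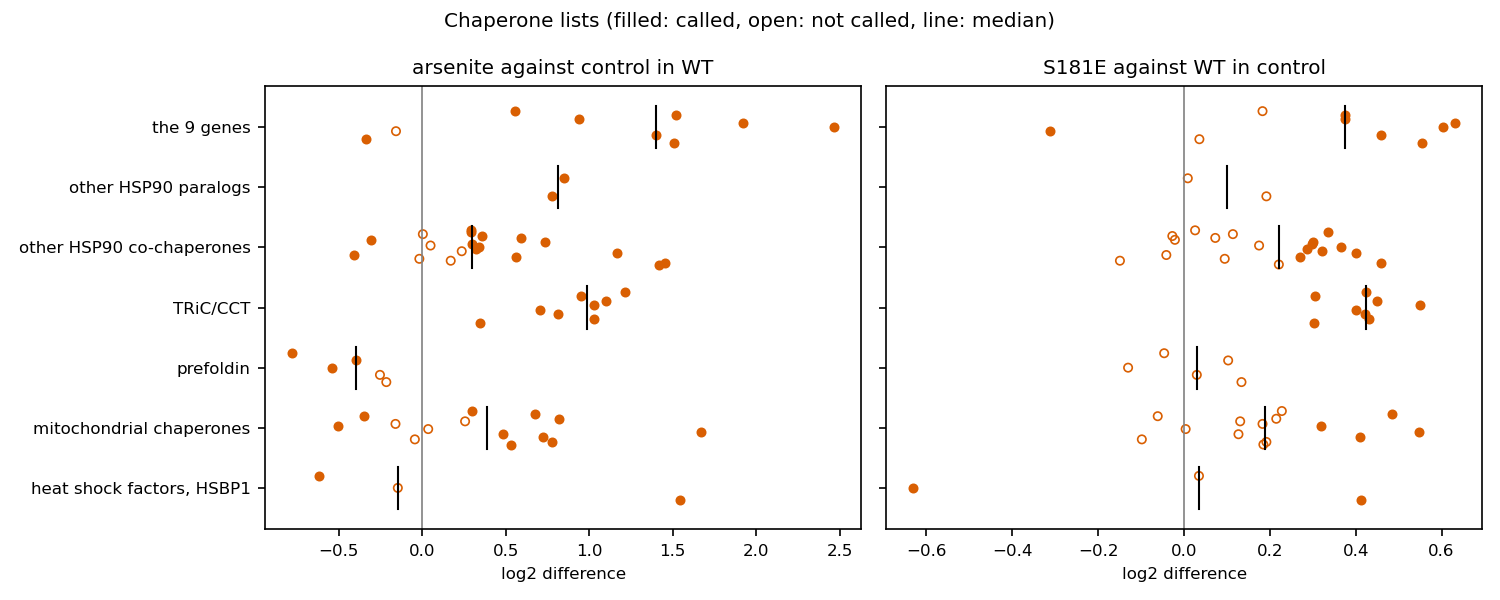
Log2 difference of each gene of the chaperone lists in WT arsenite against control (left) and in S181E against WT in control (right), with filled symbols for called genes and a line at the median of each list. TRiC/CCT is shifted to the right in both panels (medians 0.99 and 0.42), prefoldin has a median of -0.40 on the left, and HSF1 is the point at -0.63 on the right.

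By the root mean square difference of log2 levels over the 8 group means, each gene centred on its own mean, the nearest gene to HSP90AA1 was MTHFD1 at 0.048, followed by BUB1B and XAB2. For HSP90AB1 it was SGO2 at 0.098, for HSPD1 PUM3 at 0.033, for STIP1 BMS1 at 0.036, for CHORDC1 CRYBG1 at 0.054, for FKBP4 GTPBP4 at 0.027 and for AHSA1 TXNRD2 at 0.028. HSPE1 was nearest to DERA at 0.040 and HSPB1 to SLC45A3 at 0.043. Among the 9 genes the closest pairs were HSPD1 with STIP1 at 0.108 and with CHORDC1 at 0.109, and HSP90AA1 lay 0.264 from HSP90AB1. HSPE1 ranked 6525 by likeness to its neighbour HSPD1.

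The parental pair was 1 library per treatment and was not tested. HSP90AA1 was at 980.4 CPM in the control library and 3381 CPM in the arsenite library, a log2 difference of 1.79, and HSP90AB1 at 931.7 and 4398 CPM, a difference of 2.24. HSPD1 differed by 1.14, STIP1 by 1.36, CHORDC1 by 1.31, FKBP4 by 0.74 and AHSA1 by 0.47. HSPE1 was lower in arsenite, at 184.2 against 248.4 CPM, and HSPB1 stood at 436.5 and 391 CPM, below the range of WT libraries for each treatment (550.1 to 614 CPM in control and 513.3 to 528.5 CPM in arsenite). Parental HSPB1 was also below the means of S181E and Y396E, at 469.3 and 458.7 CPM in control and 450.3 and 475.7 CPM in arsenite. In control the parental levels of HSP90AA1, HSP90AB1 and FKBP4 fell within the range of the WT libraries. HSPD1 at 714.5 CPM, STIP1 at 240.2 CPM and AHSA1 at 193.5 CPM lay above it and below the S181E control mean, CHORDC1 at 56.3 CPM was next to the highest WT library (56.2 CPM), and HSPE1 at 248.4 CPM was above all WT libraries (at most 244.6 CPM).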

How the data were processed

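The authors extracted poly(A) RNA from clarified lysate of 26 dishes, made stranded libraries and sequenced them as single reads. Per the labels and methods, reads were checked with FastQC 0.11.9, aligned to hg38 with STAR 2.7.11b and assigned to exons with featureCounts of Subread 2.0.6 on the reverse strand, without multimapping or ambiguous reads. The deposited values are raw read counts per gene. Here they were tested with edgeR 4.0.16 in R 4.3.3: protein-coding genes with CPM over 10 in at least 12 of 24 population libraries (9099 genes), TMM scaling, 1 quasi-likelihood fit over 8 groups of 3 libraries (16 residual degrees of freedom) and Benjamini-Hochberg adjustment over all genes tested. Gene symbols came from a GENCODE annotation of another release, which matched 99.1% of the identifiers. P-values measure the spread between dishes of 1 sorted pool. Of 28 pairs of groups, same-numbered libraries deviated together in all 3 pairs (r over 0.1) only between WT and RQ, in control (0.291 to 0.525) and arsenite (0.147 to 0.150), so the numbers were taken to pair these, from the data. The fit was also run on simulated data with the same spread for every gene and few genes changed. That setting is unlike the wide shift in arsenite, so no conclusion is drawn from it. DESeq2 1.42.0, other scalings and filters, a replicate block and left-out libraries served as alternatives. Leaving out 3 libraries, leaving out mitochondrial genes, the blocked fit of WT and RQ alone and the check of transcript windows were added after the data were seen. All 9 genes were named, and in each chaperone list up to 3 genes that rose or fell furthest with arsenite in WT among those called. The members and lists were chosen with earlier results of these data known. The RNA immunoprecipitation libraries were not analysed here.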

Additional observations from a re-analysis of the deposited data

Results flagged for a closer look

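The arsenite response differed between a phosphomimetic population and WT for 7 genes in S181E and 5 in Y396E, all in the lower direction. This was the edgeR test of the difference, with Benjamini-Hochberg adjustment over 9099 genes. Over all genes tested 16.4% were called in S181E minus WT and 9.41% in the lower direction, with 21.5% and 11.1% in Y396E minus WT. In S181E minus WT the log2 difference was -0.616 for HSP90AA1 (adjusted p = 0.000305), -0.655 for HSP90AB1 (adjusted p = 0.000499), -0.476 for HSPD1 (adjusted p = 0.00105) and -0.539 for CHORDC1 (adjusted p = 8.71e-05). It was -0.443 for STIP1 (adjusted p = 0.00157), -0.295 for AHSA1 (adjusted p = 0.00459) and -0.267 for FKBP4 (adjusted p = 0.00793). In Y396E minus WT it was -0.561 for HSP90AA1 (adjusted p = 0.000582), -0.587 for HSP90AB1 (adjusted p = 0.000928), -0.523 for HSPD1 (adjusted p = 0.000322), -0.552 for CHORDC1 (adjusted p = 4.63e-05) and -0.372 for STIP1 (adjusted p = 0.00388). FKBP4 lay at the fold threshold, since in Y396E it was at -0.258 and not called. Over the alternatives, other fold thresholds included, FKBP4 lost its call 11 times in S181E and gained one 8 times in Y396E. Both comparisons use the same WT libraries.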

How the results depend on the processing

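Over 4878 values of the 9 genes in the alternatives, 4783 kept their side of the threshold, 49 lost a call, 46 gained one and 0 called values changed sign. At a fold over 1.5 the number of the 9 genes called fell to 0 in RQ against WT in control, 2 in S181E and 0 in Y396E against WT in control, and 2 (S181E) and 1 (Y396E) for the response. With no fold threshold it was 2 in S181E and 2 in Y396E against WT in arsenite and 8 for the response of Y396E. Of these 8, HSPB1 was higher at 0.21 (edgeR adjusted p = 0.0309) and the others were lower. Counts over all genes at these thresholds are in the next paragraph, except for the response of Y396E with no fold threshold. The 8 genes there are thus not set against a share of all genes. In Y396E against WT in arsenite 1 gene was called with no filter on low counts, with the filterByExpr filter and with all gene types, and 0 to 2 with 1 library left out, the 2 being CHORDC1 (-0.30) and HSPE1 (-0.36) without Y396E arsenite replicate 2. With 1 library left out, the log2 HSP90AA1 to HSP90AB1 ratio ranged from -0.550 to -0.494 for arsenite in Y396E, from -0.001 to 0.055 for Y396E against WT in control and from -0.025 to 0.031 for Y396E against S181E in control. The HSPD1 to HSPE1 ratio ranged from 1.19 (without Y396E arsenite replicate 3) to 1.61 for arsenite in Y396E, from -0.089 to 0.334 for Y396E against WT in arsenite and from -0.085 to 0.338 for Y396E against S181E in arsenite.

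With the replicate number as a block, 8, 8, 7 and 8 of the 9 genes were called for arsenite in WT, RQ, S181E and Y396E, 7 in S181E and 7 in Y396E against WT in control, and 7 and 5 for their responses, and the block changed no count of the 9 genes. The block in WT and RQ libraries alone left 1 gene called in control and 0 in arsenite. Over all genes tested, a fold over 1.5 called 3831, 4012, 2775 and 2882 genes for arsenite in WT, RQ, S181E and Y396E, 478 and 417 in S181E and Y396E against WT in control, 262 and 354 in arsenite, 108 and 224 for their responses, and 17, 29 and 9 for RQ in control, arsenite and response. With no fold threshold 4300 and 4019 genes were called in control and 2096 and 3194 in arsenite for S181E and Y396E. Fitting only the groups compared called 1122 genes in Y396E against WT in arsenite, 948 for its response, and 71 and 250 for RQ against WT in control and arsenite. Without WT control replicate 2 the responses of S181E and Y396E had 748 and 1151 calls, and without Y396E arsenite replicate 2 Y396E against S181E in arsenite had 691. With 3 libraries left out RQ against WT had 280, 233 and 47 calls in control, arsenite and response. Library totals alone moved the median of all genes from 0.019 to 0.177 in S181E and from 0.015 to 0.142 in Y396E against WT in control. The cause of these shifts was not tested.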
